A study of Homo sapiens with 15 samples.

Results

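The nuclear genes for the subunits of respiratory complexes II, III and IV and of ATP synthase (complex V) were followed after depletion of eIF3e in MCF-10A, a human breast epithelial cell line that does not form tumours. The set was taken by gene symbol from a list of 41 symbols, which was drawn up with earlier results of these data known. All 41 were found both among the 56475 symbols of the total RNA table and among the 20248 symbols of the footprint table. It holds 4 subunits of complex II, 9 of complex III, 11 of complex IV and 16 of complex V. Those of complex IV include COX7A2L, which joins complexes III and IV, and those of complex V the inhibitor ATPIF1. The set also holds CYCS, the soluble cytochrome c that carries electrons between complexes III and IV. The symbols are the older ones used by the tables, so that ATP5B stands for the gene now called ATP5F1B.

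Cells treated with eIF3e siRNA and cells treated with control siRNA, each at 20 nM for 72 h, gave 3 total RNA libraries and 3 ribosome footprint libraries per siRNA. The targeted protein is part of eIF3, the initiation factor that brings the small ribosomal subunit to mRNA. A further 3 footprint libraries, with no siRNA named, came from eIF3B-bound ribosomes, eIF3E-bound ribosomes and all ribosomes of a lysate (total lysate), with 1 library each. Footprints are the mRNA fragments of 26 to 34 nt that ribosomes shield from RNase. No label says that the 3 libraries of a group came from separate cultures, so the p-values below measure only the spread between these libraries, which may be technical.

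Complexes II to IV and cytochrome c, together with complex I, form the electron transport chain of the inner mitochondrial membrane. Electrons taken from succinate by complex II, or from NADH by complex I, pass through complex III and cytochrome c to complex IV, which reduces oxygen. Complexes III and IV pump protons, and ATP synthase lets the protons back through its rotating c ring to drive ATP formation in its F1 head. Complex II is encoded wholly in the nucleus, while complexes III, IV and V each combine nuclear subunits, made on cytosolic ribosomes and imported, with a few made inside mitochondria from mitochondrial DNA.

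Total RNA libraries held 4263767 to 5646270 counts, footprint libraries of the siRNA groups 1889543 to 3447360, and the 3 single footprint libraries 1224606 to 1630872. EIF3E itself had 20.6, 21.4 and 25.9 CPM in total RNA of eIF3e siRNA cells, against 198, 219 and 188 CPM in control siRNA cells (log2 change -3.15 ± 0.12 SE), and its footprints changed by -2.88 ± 0.16. Throughout, CPM values are relative to the TMM-scaled size of the library, changes are log2 of eIF3e siRNA over control siRNA with their SE (n = 3 and 3 libraries), and a gene is called where the Benjamini-Hochberg adjusted p of edgeR's quasi-likelihood test over all genes is under 0.05. All 10 genes of a list fixed for mammary basal epithelium were detected, among them KRT5, TP63, and EPCAM and CDH1, which mark epithelium in general. In total RNA 3 were higher and 3 lower (60.0% called, against 37.5% of all genes tested). In footprints 2 were higher and 5 lower (70.0% called, against 18.5%). KRT14 (-1.0 ± 0.16 in total RNA, -0.97 ± 0.11 in footprints) and KRT6A (-0.74 ± 0.12 and -0.78 ± 0.11), keratins of basal and stressed epithelium, fell in both assays. ITGB4 also fell in both assays (-0.43 ± 0.10 and -0.32 ± 0.11), and KRT17 (-0.60 ± 0.11) and KRT5 (-0.53 ± 0.11) fell in footprints. EPCAM rose in total RNA (0.43 ± 0.11), and LAMB3 (0.32 ± 0.10 and 0.41 ± 0.11) and CDH3 (0.26 ± 0.10 and 0.36 ± 0.11) rose in both assays. The summed level of the list was 11534 to 12366 CPM in total RNA of eIF3e siRNA cells and 12099 to 13457 CPM in control siRNA cells, with overlap. In footprints the sum was lower without overlap, at 27646 to 28648 CPM in eIF3e siRNA cells and 29047 to 32415 CPM in control siRNA cells. Of 10 markers of other cell types, CD3E, ADIPOQ and DES had no count in the siRNA libraries, and the list summed to 123 to 137 CPM in total RNA of eIF3e siRNA cells, against 75.7 to 97.7 CPM in control siRNA cells. In footprints this sum was 403 to 496 CPM in eIF3e siRNA cells and 211 to 257 CPM in control siRNA cells. Its main members CD14 (0.57 ± 0.17 in total RNA, 0.94 ± 0.15 in footprints) and DCN (0.73 ± 0.13 and 1.05 ± 0.17) rose in both assays, and their part in the results below was not tested. In total RNA the 7SL RNA took 1.02, 4.07 and 0.126% of counts in eIF3e siRNA libraries and 4.36, 3.91 and 2.44% in control siRNA libraries. RPPH1, the RNA of RNase P, took 6.95, 7.10 and 6.37% in eIF3e siRNA libraries and 12.3, 9.93 and 9.33% in control siRNA libraries, and the genes that the footprint table also lists took 76.8, 73.1 and 75.9% in eIF3e siRNA libraries and 64.0, 71.2 and 67.9% in control siRNA libraries. The last 2 shares did not overlap between the groups, and the part of these RNAs in the results was not tested.

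In total RNA 9 of the 41 subunits rose and 4 fell. Leaving out eIF3e siRNA library 2 or control siRNA library 2 left 5 higher, and leaving out eIF3e siRNA library 1 or 3 or control siRNA library 1 left 1 lower. The calls made up 31.7% of the subunits, while 37.5% of the 11719 genes tested were called (18.8% higher and 18.7% lower), so the share of subunits called in total RNA was near that of genes at large. The median change of the subunits was 0.12, against 0.016 over all genes tested. With libraries scaled by total counts, 16 subunits rose and 0 fell in total RNA; that scaling shifted the median of all genes by 0.16, and 70.6% of all calls were then higher, against 50.1% with TMM factors. In footprints 13 of 40 tested subunits rose and 2 fell, a called share of 37.5%, while 18.5% of the 9228 genes tested were called (10.0% higher and 8.46% lower). Without control siRNA library 2, 7 were higher and 0 lower. The count of lower subunits was 1 without any 1 eIF3e siRNA library and 0 without control siRNA library 1. The median footprint change was 0.23 for the subunits and -0.007 over all genes tested. As the list was drawn up with earlier results of these data known, its shares and medians are a description. Subunits were more deeply counted than most genes, with a median of 197 counts per total RNA library and 268 per footprint library, against 86.2 and 63.2 over all genes tested, which makes a change of a given size easier to call. In bulk libraries fewer cells of a type and less RNA per cell cannot be told apart.

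The 3 eIF3e siRNA libraries lay all above the 3 control siRNA libraries for 13 subunits in total RNA and all below for 5, where 25.4% and 24.2% of all genes tested did so. In footprints 18 subunits lay all above and 3 all below, where 17.1% and 16.5% of all genes tested did so. Summed by complex, footprints of complex II genes were 561, 575 and 546 CPM in eIF3e siRNA cells against 282, 238 and 286 CPM in control siRNA cells, a ratio of means of 2.09. The same ratio was 1.44 for complex III, 1.14 for complex IV and 1.47 for complex V. In total RNA the ratios were 1.43, 1.26, 1.02 and 1.24 for complexes II, III, IV and V. Such sums are led by the genes with the most reads.

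**Figure D1:**
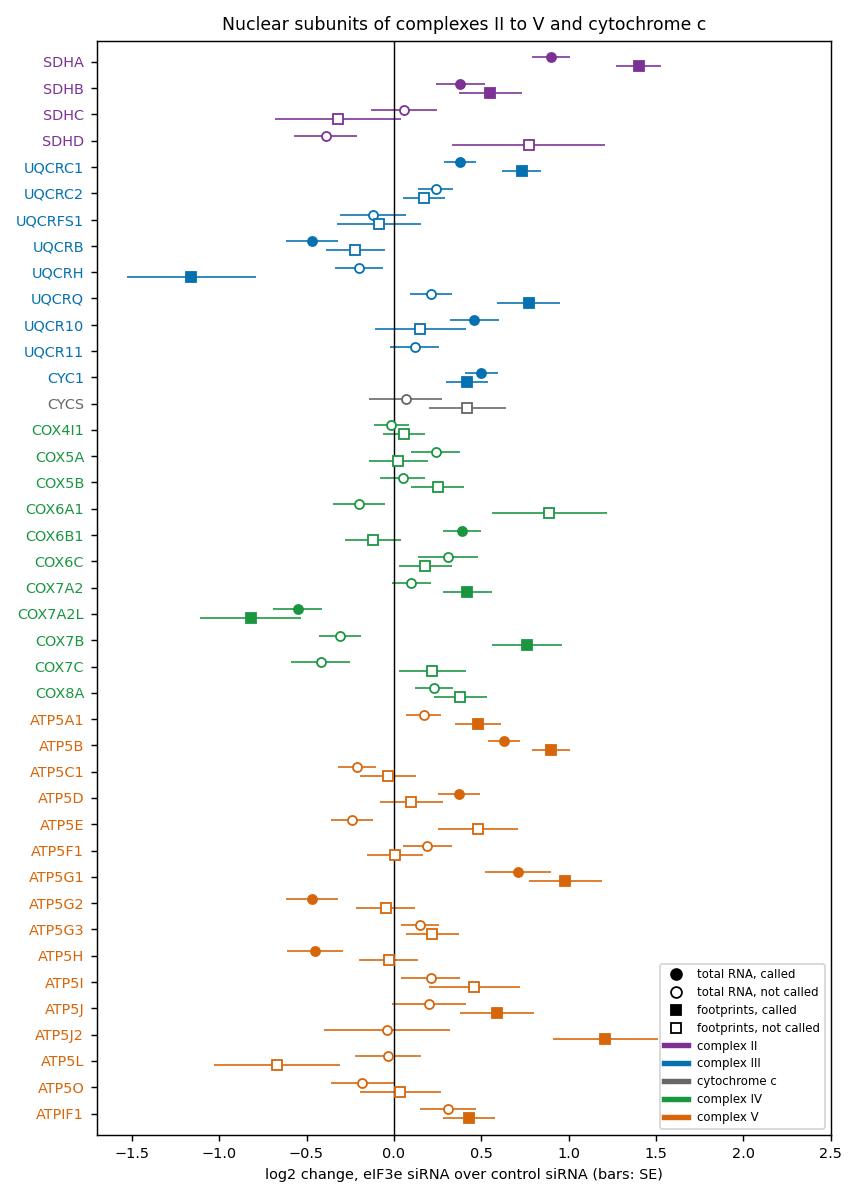
Log2 change (x axis) of each of the 41 subunits (y axis, coloured by complex) in total RNA (circles) and footprints (squares), eIF3e siRNA over control siRNA, with SE bars from 3 libraries per group; filled symbols are called. SDHA lies farthest right in total RNA and footprints, at 0.90 and 1.40, and UQCRH farthest left in footprints, at -1.16.

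Complex II, succinate dehydrogenase, also belongs to the tricarboxylic acid cycle. Its catalytic flavoprotein SDHA (chromosome 5, 218320 to 268746, GRCh38.p14) had 113, 108 and 95.8 CPM of total RNA in eIF3e siRNA cells, against 54.5, 58.4 and 56.7 CPM in control siRNA cells. All eIF3e siRNA libraries were above all control siRNA libraries, and the change of 0.90 ± 0.11 had an edgeR adjusted p of 8.5e-06. Its footprints rose more, to 406, 392 and 409 CPM in eIF3e siRNA cells against 162, 149 and 146 CPM in control siRNA cells, again without overlap (1.40 ± 0.13, adjusted p 1.3e-09). SDHA was called in both assays under every alternative run, including the removal of each library in turn.

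SDHB, the iron-sulphur subunit that passes electrons on from SDHA, rose less. It had 50.2, 53.3 and 52.3 CPM of total RNA in eIF3e siRNA cells and 47.9, 31.8 and 40.1 CPM in control siRNA cells (0.38 ± 0.14), and 115, 141 and 111 CPM of footprints in eIF3e siRNA cells against 87.1, 63.4 and 99.9 CPM in control siRNA cells (0.55 ± 0.18). The groups did not overlap in either assay, with edgeR adjusted p of 0.035 and 0.027. The total RNA call was lost without any 1 library other than control siRNA library 1 (0.23 to 0.41, adjusted p 0.069 to 0.21), and the footprint call without eIF3e siRNA library 2 or control siRNA library 2 (0.38 to 0.44, adjusted p 0.16 to 0.23). Neither membrane anchor was called. SDHC had footprints of 22.1, 13.9 and 17.0 CPM in eIF3e siRNA cells and 22.5, 12.8 and 31.2 CPM in control siRNA cells, and SDHD 17.6, 27.8 and 8.66 CPM in eIF3e siRNA cells against 10.2, 12.8 and 8.41 CPM in control siRNA cells, both with overlapping groups and at most 76 counts per library.

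In complex III, the core protein UQCRC1 (chromosome 3, 48599002 to 48609646) rose in both assays and was called under every alternative. Its total RNA was 813, 770 and 792 CPM in eIF3e siRNA cells and 632, 598 and 598 CPM in control siRNA cells (0.38 ± 0.092, edgeR adjusted p 0.0044). Its footprints were 1875, 1816 and 1996 CPM in eIF3e siRNA cells and 1227, 1112 and 1094 CPM in control siRNA cells (0.73 ± 0.11, adjusted p 1.2e-05). The groups were apart in both assays by more than the spread within either. UQCRC2, its partner in the core, was not called, although its groups did not overlap in either assay: 132, 127 and 131 CPM of total RNA in eIF3e siRNA cells, against 108, 115 and 106 CPM in control siRNA cells.

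CYC1, cytochrome c1, which hands electrons to cytochrome c, had 276, 293 and 282 CPM of total RNA in eIF3e siRNA cells and 209, 197 and 198 CPM in control siRNA cells (0.50 ± 0.094, edgeR adjusted p 0.00062). Its footprints were 311, 336 and 344 CPM in eIF3e siRNA cells and 244, 251 and 244 CPM in control siRNA cells (0.42 ± 0.12, adjusted p 0.013). The groups were apart in both assays. The total RNA call held under every alternative, while the footprint call was lost without eIF3e siRNA library 2 or 3 or control siRNA library 2 (0.39 to 0.43, adjusted p 0.062 to 0.076). The Rieske iron-sulphur protein UQCRFS1, the other electron-carrying nuclear subunit, had total RNA of 10.3, 11.4 and 9.92 CPM in eIF3e siRNA cells and 10.2, 11.0 and 13.1 CPM in control siRNA cells, with overlapping groups.

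The small accessory subunits of complex III did not share a direction. UQCRQ footprints were 137, 139 and 150 CPM in eIF3e siRNA cells and 110, 70.7 and 68.7 CPM in control siRNA cells (0.77 ± 0.18, edgeR adjusted p 0.0019), a call made under every alternative, while its total RNA, not called, was 85.8, 101 and 100 CPM in eIF3e siRNA cells against 94.7, 75.2 and 77.5 CPM in control siRNA cells. UQCR10 rose in total RNA, with 34.2, 35.7 and 33.6 CPM in eIF3e siRNA cells and 29.3, 21.4 and 25.0 CPM in control siRNA cells (0.46 ± 0.14, adjusted p 0.015), lost without eIF3e siRNA library 2 or control siRNA library 2 (0.34 to 0.43, adjusted p 0.052 to 0.10). UQCRB fell in total RNA, with 24.8, 23.6 and 23.1 CPM in eIF3e siRNA cells and 38.8, 34.5 and 25.2 CPM in control siRNA cells (-0.47 ± 0.15, adjusted p 0.025), but lost its call without any 1 library other than control siRNA library 3 (-0.49 to -0.36, adjusted p 0.056 to 0.094).

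UQCRH, the hinge protein at the cytochrome c docking side, fell in footprints. It had 8.01, 13.2 and 14.6 CPM in eIF3e siRNA cells and 33.5, 30.1 and 16.3 CPM in control siRNA cells, from 25 to 82 counts per library (-1.16 ± 0.37, edgeR adjusted p 0.027). The groups did not overlap, but the nearest pair of values was 14.6 and 16.3 CPM, and the call was lost without eIF3e siRNA library 1 or control siRNA library 1 or 2 (-1.08 to -0.94, adjusted p 0.11 to 0.15). Its total RNA was 28.3, 25.6 and 23.5 CPM in eIF3e siRNA cells and 32.9, 29.4 and 26.6 CPM in control siRNA cells, with overlapping groups. UQCR11 had 124 to 163 counts per total RNA library but 0 counts in all 9 footprint libraries. How reads that overlap or map to several genes were counted is not given in the sources used here and was not tested, so the 0 may not stand for a level. A count of 0 allows a level of up to 0.87 to 1.08 CPM in eIF3e siRNA libraries and up to 1.16 to 1.59 CPM in control siRNA libraries (3 counts of the total, counting error only), and UQCR11 entered no footprint test.

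CYCS was not called in either assay. Its footprints were 54.2, 51.9 and 62.7 CPM in eIF3e siRNA cells and 49.1, 42.0 and 35.1 CPM in control siRNA cells, without overlap (0.42 ± 0.22), and its total RNA of 20.8, 24.3 and 13.2 CPM in eIF3e siRNA cells and 21.1, 19.1 and 15.1 CPM in control siRNA cells overlapped.

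In complex IV, cytochrome c oxidase, 2 of 11 nuclear subunits were called in total RNA (18.2%, against 37.5% of all genes tested). In footprints 3 of 11 were called (27.3%, against 18.5%). The 11 include COX7A2L, a supercomplex assembly factor, which was called in both assays. The catalytic core of complex IV is mitochondrially encoded, and the nuclear subunits surround it. COX6B1, on the side facing cytochrome c, rose in total RNA to 59.4, 58.6 and 61.6 CPM in eIF3e siRNA cells against 50.4, 41.2 and 45.4 CPM in control siRNA cells (0.39 ± 0.11, edgeR adjusted p 0.010), without overlap, a call lost without control siRNA library 2 (0.31, adjusted p 0.072). Its footprints of 98.4, 120 and 113 CPM in eIF3e siRNA cells and 110, 124 and 127 CPM in control siRNA cells overlapped. COX4I1 had overlapping groups in both assays, with footprints of 514, 497 and 521 CPM in eIF3e siRNA cells and 484, 474 and 518 CPM in control siRNA cells. COX5A and COX5B were not called either.

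COX7B (chromosome X, 77899468 to 77907376) rose in footprints. They were 84.3, 97.6 and 93.5 CPM in eIF3e siRNA cells and 61.4, 59.8 and 40.6 CPM in control siRNA cells (0.76 ± 0.20, edgeR adjusted p 0.0053), a call made under every alternative. Its total RNA was 35.5, 42.4 and 33.8 CPM in eIF3e siRNA cells and 50.7, 44.0 and 43.6 CPM in control siRNA cells (-0.31 ± 0.12), not called, with the eIF3e siRNA libraries all below the control siRNA libraries. COX7A2 footprints were 309, 360 and 279 CPM in eIF3e siRNA cells and 279, 226 and 205 CPM in control siRNA cells (0.42 ± 0.14, adjusted p 0.031), with the lowest eIF3e siRNA library just above the highest control siRNA library. That call was lost without eIF3e siRNA library 1 or 2 or control siRNA library 2 or 3 (0.31 to 0.43, adjusted p 0.072 to 0.22).

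COX7A2L, a relative of COX7A2 that joins complexes III and IV into supercomplexes, was called lower in both assays. It had 20.0, 25.6 and 27.5 CPM of total RNA in eIF3e siRNA cells and 40.2, 33.4 and 33.9 CPM in control siRNA cells (-0.55 ± 0.14, edgeR adjusted p 0.0066), and 27.6, 15.0 and 23.0 CPM of footprints in eIF3e siRNA cells against 40.9, 46.1 and 29.2 CPM in control siRNA cells (-0.82 ± 0.29, adjusted p 0.049). Neither assay's groups overlapped. The total RNA call held without any 1 library but was lost with total-count scaling (-0.39, adjusted p 0.057). The footprint call was lost with the DESeq2 Wald test (adjusted p 0.055) and without eIF3e siRNA library 2 or 3 or control siRNA library 1 or 2 (-0.86 to -0.63, adjusted p 0.096 to 0.23).

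**Figure D2:**
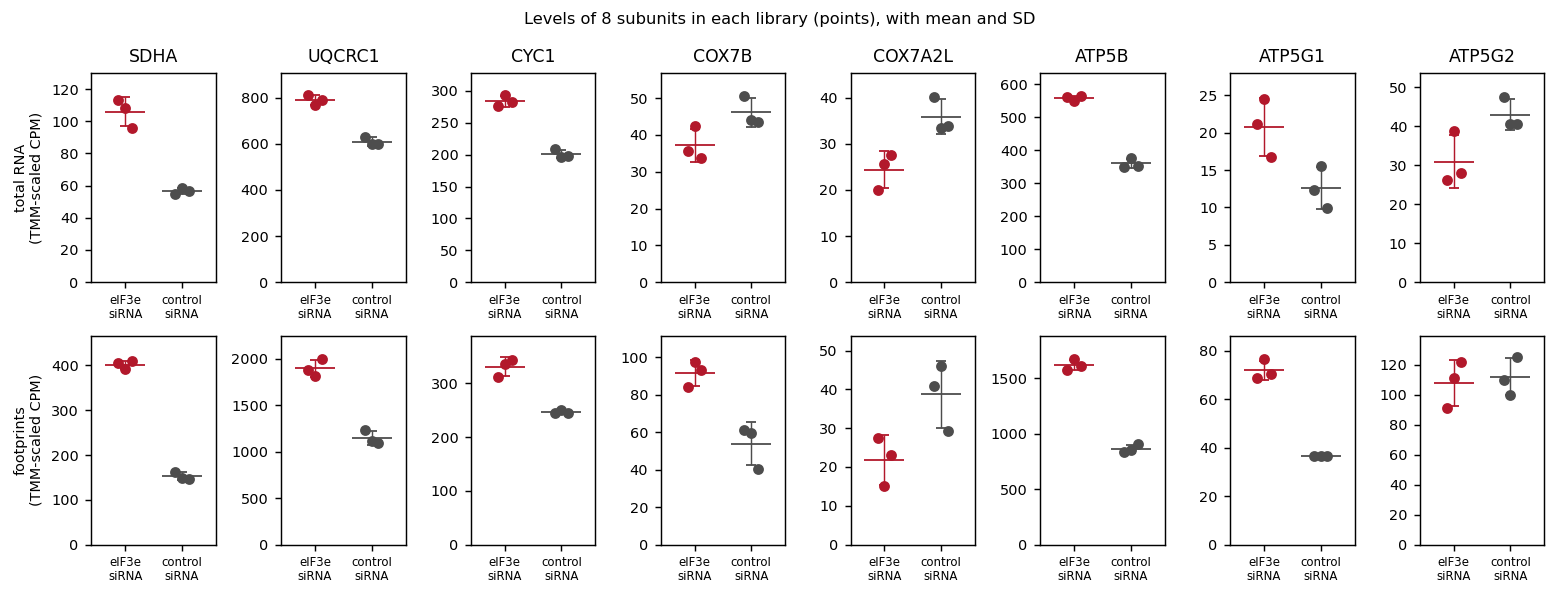
TMM-scaled CPM (y axis, from 0) of 8 subunits in total RNA (top) and footprints (bottom), with each library as a point and the mean and SD as bars, eIF3e siRNA left of control siRNA (x axis). COX7B stands above control siRNA in footprints (84.3 to 97.6 against 40.6 to 61.4 CPM) and below it in total RNA, while ATP5G1 and ATP5G2 differ in opposite directions in total RNA.

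In ATP synthase, the catalytic F1 head is an alternating ring of alpha (ATP5A1) and beta (ATP5B) subunits. ATP5B (chromosome 12, 56638175 to 56645984) had 561, 550 and 564 CPM of total RNA in eIF3e siRNA cells and 350, 376 and 353 CPM in control siRNA cells (0.63 ± 0.093, edgeR adjusted p 7.0e-05). Its footprints were 1579, 1673 and 1612 CPM in eIF3e siRNA cells and 838, 853 and 907 CPM in control siRNA cells (0.90 ± 0.11, adjusted p 3.4e-07). The 2 groups were widely apart in both assays, and both calls were made under every alternative. ATP5A1 footprints were 716, 640 and 551 CPM in eIF3e siRNA cells and 417, 430 and 521 CPM in control siRNA cells (0.48 ± 0.13, adjusted p 0.0065), lost without eIF3e siRNA library 1 or control siRNA library 2 (0.39 to 0.43, adjusted p 0.071 to 0.078). Its total RNA of 198, 219 and 203 CPM in eIF3e siRNA cells and 180, 196 and 174 CPM in control siRNA cells was not called.

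The central stalk subunits gamma (ATP5C1), delta (ATP5D) and epsilon (ATP5E) turn together with the c ring. Only ATP5D was called, in total RNA, with 46.7, 59.1 and 57.5 CPM in eIF3e siRNA cells and 42.3, 40.0 and 44.0 CPM in control siRNA cells (0.37 ± 0.12, edgeR adjusted p 0.020). That call was lost without eIF3e siRNA library 2 or 3 or control siRNA library 1 or 2 (0.31 to 0.35, adjusted p 0.054 to 0.095). ATP5E footprints were 64.4, 69.1 and 66.3 CPM in eIF3e siRNA cells and 29.9, 60.7 and 53.4 CPM in control siRNA cells, without overlap but not called (0.48 ± 0.23). Of the peripheral stalk, which holds the head still, ATP5H fell in total RNA to 19.1, 17.8 and 15.8 CPM in eIF3e siRNA cells against 26.8, 26.0 and 18.8 CPM in control siRNA cells (-0.45 ± 0.16, adjusted p 0.039). The groups overlapped, and the call was lost without any 1 library other than control siRNA library 3 (-0.51 to -0.38, adjusted p 0.058 to 0.15).

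ATP5J, the peripheral stalk's coupling factor F6, rose in footprints, with 69.5, 88.1 and 64.2 CPM in eIF3e siRNA cells and 58.1, 42.0 and 46.5 CPM in control siRNA cells (0.59 ± 0.21, edgeR adjusted p 0.045), lost without any 1 library other than control siRNA library 1 (0.44 to 0.69, adjusted p 0.051 to 0.24). ATP5J2, the membrane subunit f, rose in footprints to 31.4, 40.6 and 72.6 CPM in eIF3e siRNA cells against 23.7, 21.9 and 16.8 CPM in control siRNA cells (1.21 ± 0.30, adjusted p 0.0039). All eIF3e siRNA libraries were above all control siRNA libraries, but library 3 stood well above the other eIF3e siRNA libraries, and the call was lost without it (0.78, adjusted p 0.13). ATPIF1, which blocks ATP hydrolysis by the enzyme, had footprints of 146, 182 and 175 CPM in eIF3e siRNA cells and 132, 133 and 109 CPM in control siRNA cells (0.43 ± 0.15, adjusted p 0.046), lost without any 1 library other than eIF3e siRNA library 1 (0.32 to 0.47, adjusted p 0.058 to 0.19).

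The c ring is built of 1 protein that 3 genes encode with different import signals, so that ATP5G1, ATP5G2 and ATP5G3 yield the same mature subunit. ATP5G1 rose in total RNA, with 21.1, 24.5 and 16.8 CPM in eIF3e siRNA cells and 12.3, 15.6 and 9.86 CPM in control siRNA cells (0.71 ± 0.19, edgeR adjusted p 0.0085), a call lost without eIF3e siRNA library 2 (0.57, adjusted p 0.057). ATP5G2 fell in total RNA, with 26.1, 38.8 and 27.9 CPM in eIF3e siRNA cells and 47.5, 40.5 and 40.6 CPM in control siRNA cells (-0.47 ± 0.15, adjusted p 0.019), lost without eIF3e siRNA library 1 or 3 or control siRNA library 1 (-0.41 to -0.36, adjusted p 0.070 to 0.11). Neither pair of groups overlapped.

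ATP5G3 was not called, with 65.8, 74.0 and 80.0 CPM of total RNA in eIF3e siRNA cells and 67.9, 68.6 and 61.9 CPM in control siRNA cells. Summed over the 3 genes, total RNA was 113, 137 and 125 CPM in eIF3e siRNA cells and 128, 125 and 112 CPM in control siRNA cells, a ratio of means of 1.03 with overlapping groups. In footprints ATP5G1 had 68.9, 76.4 and 70.5 CPM in eIF3e siRNA cells and 36.4, 36.5 and 36.6 CPM in control siRNA cells (0.98 ± 0.21, edgeR adjusted p 0.00097), a call made under every alternative. ATP5G2 footprints of 91.3, 111 and 122 CPM in eIF3e siRNA cells and 110, 100 and 125 CPM in control siRNA cells overlapped, and the 3 genes together gave a footprint ratio of 1.19.

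The starts of the c ring genes with opposite changes, and of SDHB and UQCRC1, are shown because they differ in the motifs searched. RefSeq's table for GRCh38.p14 held 250 bases before to 50 after the start of 33 of the 41 genes. They were searched on both strands for GCGCATGCG (bound by NRF1), CCGGAAG (bound by ETS factors, GABPA among them) and AAGATGG (bound by YY1), all textbook regulators of respiratory genes. Capitals mark a match, and each sequence runs 5′ to 3′ on the gene's strand.
ATP5G1 (chr17:48892537-48892836, plus strand): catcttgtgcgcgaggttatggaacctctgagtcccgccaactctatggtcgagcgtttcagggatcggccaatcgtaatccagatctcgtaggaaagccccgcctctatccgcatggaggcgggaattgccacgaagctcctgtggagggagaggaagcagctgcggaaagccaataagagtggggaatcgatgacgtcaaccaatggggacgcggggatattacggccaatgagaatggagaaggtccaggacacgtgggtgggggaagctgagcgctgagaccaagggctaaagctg
ATP5G2 (chr12:53676034-53676333, minus strand): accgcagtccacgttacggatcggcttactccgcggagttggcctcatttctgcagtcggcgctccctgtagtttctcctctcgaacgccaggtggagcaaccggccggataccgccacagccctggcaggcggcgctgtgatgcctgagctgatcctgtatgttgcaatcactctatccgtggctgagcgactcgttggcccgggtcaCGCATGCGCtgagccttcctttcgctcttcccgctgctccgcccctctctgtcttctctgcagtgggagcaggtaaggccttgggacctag
SDHB (chr1:17053983-17054282, minus strand): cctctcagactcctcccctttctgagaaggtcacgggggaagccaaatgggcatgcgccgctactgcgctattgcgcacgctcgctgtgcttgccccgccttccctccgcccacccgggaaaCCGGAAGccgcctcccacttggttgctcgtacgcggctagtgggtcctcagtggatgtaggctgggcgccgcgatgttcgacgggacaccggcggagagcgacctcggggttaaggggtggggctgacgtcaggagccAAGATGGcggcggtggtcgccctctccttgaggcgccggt
UQCRC1 (chr3:48609597-48609896, minus strand): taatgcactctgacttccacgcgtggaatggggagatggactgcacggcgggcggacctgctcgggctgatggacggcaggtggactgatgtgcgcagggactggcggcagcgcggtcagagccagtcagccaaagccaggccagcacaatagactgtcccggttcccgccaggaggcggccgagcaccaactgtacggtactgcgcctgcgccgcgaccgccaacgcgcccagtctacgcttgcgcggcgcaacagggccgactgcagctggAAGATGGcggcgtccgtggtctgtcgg

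ATP5G1 held none of the 3 motifs in this window. ATP5G2 held the NRF1 motif 41 bases before the start shown, and none at its 2 other starts in the table. SDHB held the ETS motif 128 bases before its start and the YY1 motif at base 11 after it, and UQCRC1 the YY1 motif at base 24. The starts shown are examples, and 22 of the 33 genes held a motif of any kind. SDHA, with the largest rise in both assays, held none, nor did UQCR10, COX7A2L and COX7B. ATP5B and CYC1, called in both assays, were among the genes with no start listed. The NRF1 motif stood in 6 of the 33 genes (18.2%), against 2.34% of 27305 genes in the table. The ETS motif stood in 15 (45.5%, against 12.2%) and the YY1 motif in 9 (27.3%, against 7.11%). The 27305 genes were not limited to the 11719 tested in total RNA, and shares among tested genes are not given. No match of one motif overlapped a match of another, and a match is a description of the letters, not a site of binding. In total RNA, where 18.8% of all genes tested rose and 18.7% fell, 0 rose and 1 fell of the 6 genes with the NRF1 motif, 2 rose and 1 fell of the 15 with the ETS motif, and 2 rose and 0 fell of the 9 with the YY1 motif. In footprints, where 10.0% rose and 8.46% fell, 1 rose and 0 fell of the 6 with the NRF1 motif, 4 rose and 1 fell of the 14 tested with the ETS motif, and 3 rose and 0 fell of the 9 with the YY1 motif.

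Across the 40 subunits measured in both assays, 6 rose in both (SDHA, SDHB, UQCRC1, CYC1, ATP5B and ATP5G1), COX7A2L fell in both, and none was called in opposite directions. The changes in the 2 assays had a Pearson r of 0.456 and a Spearman rho of 0.384 over the 40 genes, against 0.666 and 0.645 over the 9055 genes tested in both. Genes share their libraries and are not independent replicates, so these values are a description. The footprint change was above the total RNA change for 28 of the 40 subunits, against 4624 of the 9055 genes.

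**Figure D3:**
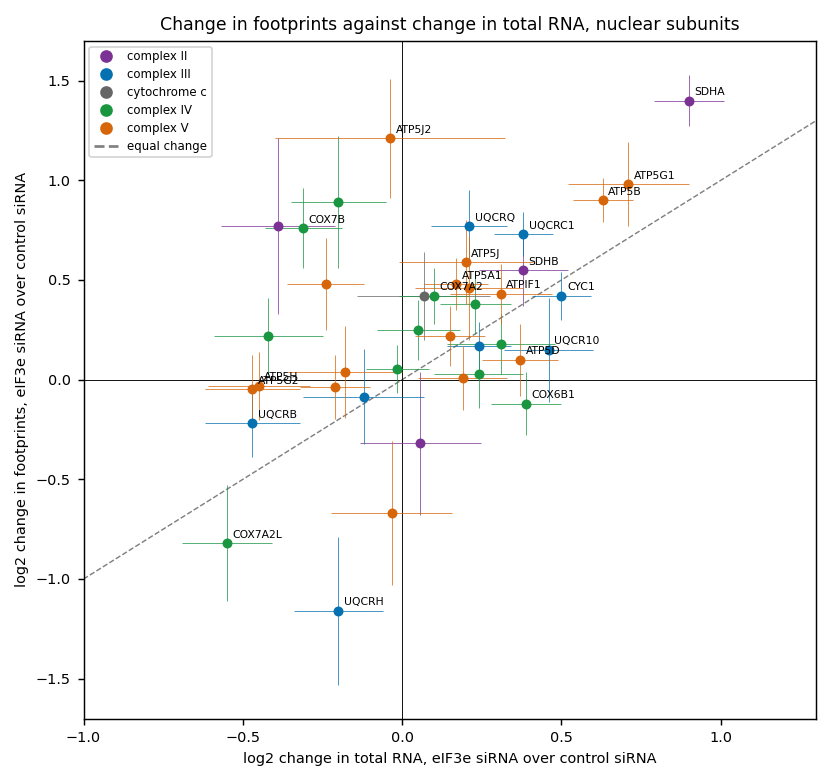
Change in footprints (y axis, log2) against change in total RNA (x axis, log2) for the 40 subunits measured in both assays, eIF3e siRNA over control siRNA, with SE bars and with names for genes called in either assay. Of the 40 points, 28 lie above the dashed line of equal change, with COX7B and ATP5J2 among the farthest from it.

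Footprints per mRNA, the interaction of assay and siRNA over the 12 libraries, changed for 1 subunit, COX7B (1.07 ± 0.23, edgeR adjusted p 0.050), which was higher in eIF3e siRNA cells. That is 2.5% of the subunits, where 0.309% of the 9055 genes tested were called (0.144% higher and 0.166% lower). The adjusted p stood just under the threshold. The call was lost without each siRNA and number in turn (0.95 to 1.18, adjusted p 0.091 to 0.17) and with scaling by total counts (0.86, adjusted p 0.071). The median over the 40 subunits was 0.21, against 0.010 over all genes tested. An unadjusted p under 0.05 was reached by 12 subunits, of which 10 were higher in eIF3e siRNA cells and UQCRH and COX6B1 lower, and 1091 of all genes tested reached it. The larger of these uncalled values were those of ATP5J2 (1.24 ± 0.47, adjusted p 0.27), SDHD (1.15 ± 0.47, adjusted p 0.32) and COX6A1 (1.09 ± 0.35, adjusted p 0.20).

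Proteins that build these complexes were described with the subunits, in a list that also holds LRPPRC, SLIRP, TACO1 and TBRG4, which act on mitochondrial RNA. Of the 48 genes listed as assembly factors, 41 were tested in total RNA. There 14 rose and 1 fell (36.6% called, against 37.5% of all genes tested), with a median change of 0.33. SCO1, which delivers copper to complex IV, rose in total RNA (0.90 ± 0.14, edgeR adjusted p 9.6e-05), with 31.1, 35.0 and 37.3 CPM in eIF3e siRNA cells and 16.6, 18.7 and 20.0 CPM in control siRNA cells. BCS1L, which inserts the Rieske protein into complex III, rose too (1.02 ± 0.17), as did TACO1 (1.28 ± 0.23), a translational activator of the mitochondrial COX1 mRNA, and TBRG4 (0.65 ± 0.11). In footprints 3 of 30 genes of this list rose and 0 fell (10.0% called, against 18.5% of all genes tested). They were SLIRP (1.47 ± 0.22), a partner of LRPPRC in the upkeep of mitochondrial mRNA, SCO1 (1.16 ± 0.31) and UQCC1 (0.50 ± 0.18). The footprint call of SCO1 was lost without control siRNA library 1 (0.78, adjusted p 0.061) and that of UQCC1 without eIF3e siRNA library 1 or 3 or control siRNA library 1 or 3 (0.35 to 0.49, adjusted p 0.12 to 0.19), as well as with total-count scaling, the DESeq2 Wald test and limma-voom (0.37 to 0.50, adjusted p 0.069 to 0.11). Of 13 genes listed as subunits and isoforms outside the set, 5 were tested in total RNA and 4 in footprints. Among the 5 was ATP5EP2, which is counted below as a pseudogene of ATP5E. None was called by edgeR, and 1 and 0 had an unadjusted p under 0.05. The most abundant, NDUFA4, changed by -0.25 ± 0.11 in total RNA (adjusted p 0.098) and C14orf2 by 0.40 ± 0.20 in footprints (adjusted p 0.18).

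The nuclear subunits of complex I, the chain's other entry point, had 11 of 36 tested higher and 0 lower in total RNA and 10 higher and 1 lower in footprints. That is 30.6% called in each assay, against 37.5% of all genes tested in total RNA and 18.5% in footprints. NDUFS8, a subunit of the electron-carrying arm, rose in both (0.91 ± 0.11 in total RNA and 1.19 ± 0.14 in footprints). So did NDUFV3 (0.87 ± 0.15 and 0.80 ± 0.26) and NDUFB5 (0.54 ± 0.10 and 0.76 ± 0.14). NDUFA8 was called in total RNA (0.87 ± 0.15) and not in footprints, and NDUFA9 in footprints (0.87 ± 0.14) and not in total RNA (0.24 ± 0.16). The 6 mitochondrially encoded subunits of complexes III to V did not move as one: in total RNA MT-CO2 rose (0.30 ± 0.11, edgeR adjusted p 0.043) and MT-CO3 fell (-0.26 ± 0.10, adjusted p 0.044), and in footprints MT-CO3 (-0.58 ± 0.12, adjusted p 0.00073) and MT-CO1 (-0.36 ± 0.12, adjusted p 0.031) fell. MT-CO3 footprints were 845, 1196 and 1007 CPM in eIF3e siRNA cells and 1447, 1581 and 1532 CPM in control siRNA cells. The MT-CO2 call was lost without any 1 library other than control siRNA library 3 (0.19 to 0.33, adjusted p 0.092 to 0.24) and with DESeq2 size factors or the DESeq2 Wald test (0.29, adjusted p 0.051 and 0.054), that of MT-CO3 in total RNA without any eIF3e siRNA library or control siRNA library 3 (-0.31 to -0.23, adjusted p 0.074 to 0.17), with total-count scaling (-0.10, adjusted p 0.45) and with a minimum count of 50 (-0.24, adjusted p 0.061), and that of MT-CO1 without eIF3e siRNA library 1 or 3 or control siRNA library 2 (-0.37 to -0.26, adjusted p 0.10 to 0.25). No gene of the assembly factor, complex I or mitochondrially encoded lists was called in footprints per mRNA by edgeR, with 2, 4 and 0 at an unadjusted p under 0.05.

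A list of 15 regulators of mitochondrial genes was also described. It mixes regulators of nuclear genes with factors that act on mitochondrial DNA (POLRMT, TFAM, TFB1M and TFB2M) and the RNA-binding protein CLUH. Of these 15, 13 were tested in total RNA, where 4 rose and 1 fell (38.5% called, against 37.5% of all genes tested). POLRMT, the mitochondrial RNA polymerase, had 28.3, 31.4 and 30.4 CPM in eIF3e siRNA cells and 12.7, 12 and 13.3 CPM in control siRNA cells (1.25 ± 0.14, edgeR adjusted p 6.0e-06). YY1, whose motif was searched above, had 64.9, 54.6 and 58.1 CPM in eIF3e siRNA cells and 119, 103 and 89.5 CPM in control siRNA cells (-0.81 ± 0.12, adjusted p 8.0e-05). CLUH, an RNA-binding protein of mRNAs for mitochondrial proteins, rose (0.71 ± 0.11), and so did the coactivator PPARGC1B (0.75 ± 0.22, adjusted p 0.012), whose call was lost without eIF3e siRNA library 1 or control siRNA library 1 (0.55 to 0.60, adjusted p 0.064 to 0.080). In footprints 3 of 11 rose and 0 fell (27.3% called, against 18.5%): POLRMT (1.25 ± 0.28), CLUH (0.70 ± 0.19) and the coactivator PPRC1 (0.55 ± 0.17). The footprint call of CLUH was lost without eIF3e siRNA library 1 (0.51, adjusted p 0.11), and that of PPRC1 without eIF3e siRNA library 2 or 3 or control siRNA library 1 or 2 (0.41 to 0.54, adjusted p 0.067 to 0.14) and with total-count scaling (0.48, adjusted p 0.065).

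Footprints from eIF3-bound ribosomes were set against those of total lysate, with 1 library each and hence no test. Ratios are given as log2 with exact 95% intervals, which cover counting error only. Of the 41 subunits, 30 reached 100 counts in at least 1 library. In eIF3B-bound footprints 3 were at least 1.5-fold above total lysate and 3 at least 1.5-fold below, where 17.2% and 18.8% of 3575 genes were, and the median ratio was -0.061 for the subunits and -0.006 for all genes. In eIF3E-bound footprints 2 were above and 4 below, where 11.2% and 14.5% of genes were, with medians of -0.042 and 0.003. Both shares of subunits were close to or below those of genes at large.

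UQCRC1 had 2195 counts in eIF3B-bound footprints, 2256 in eIF3E-bound footprints and 1157 in total lysate, ratios of 0.67 (0.57 to 0.78) and 0.53 (0.42 to 0.63). ATP5J2 lay above total lysate in both, at 0.61 (0.12 to 1.11) and 0.68 (0.20 to 1.16), from 100, 119 and 55 counts. COX6B1 (0.72, 0.40 to 1.06) passed 1.5-fold in eIF3B-bound footprints only, and COX7C (0.97, 0.59 to 1.35) in eIF3E-bound footprints only. COX7C had 126, 217 and 82 counts. Both ATP5J2 and COX7C reached 100 counts in the bound libraries alone. For such genes the filter itself favours ratios above 0, so their ratios are no sign of more eIF3-bound ribosomes. Below total lysate, ATP5F1, the peripheral stalk subunit b, was low in both (-0.79, -1.09 to -0.49, and -0.64, -0.91 to -0.36). ATP5C1 (-0.59, -0.90 to -0.29) and COX6C (-0.85, -1.10 to -0.60) passed the fold in eIF3B-bound footprints, and COX7B (-0.61, -0.95 to -0.26), ATP5E (-0.79, -1.19 to -0.40) and ATP5J (-0.71, -1.09 to -0.34) in eIF3E-bound footprints. SDHA was at 0.40 (0.19 to 0.61) in eIF3B-bound and 0.16 (-0.045 to 0.37) in eIF3E-bound footprints, and ATP5B at -0.031 (-0.12 to 0.055) and -0.004 (-0.088 to 0.079). All 6 mitochondrially encoded subunits, which are made by mitochondrial ribosomes, were at least 1.5-fold below total lysate in both bound libraries, with a median ratio of -1.53 in each.

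**Figure D4:**
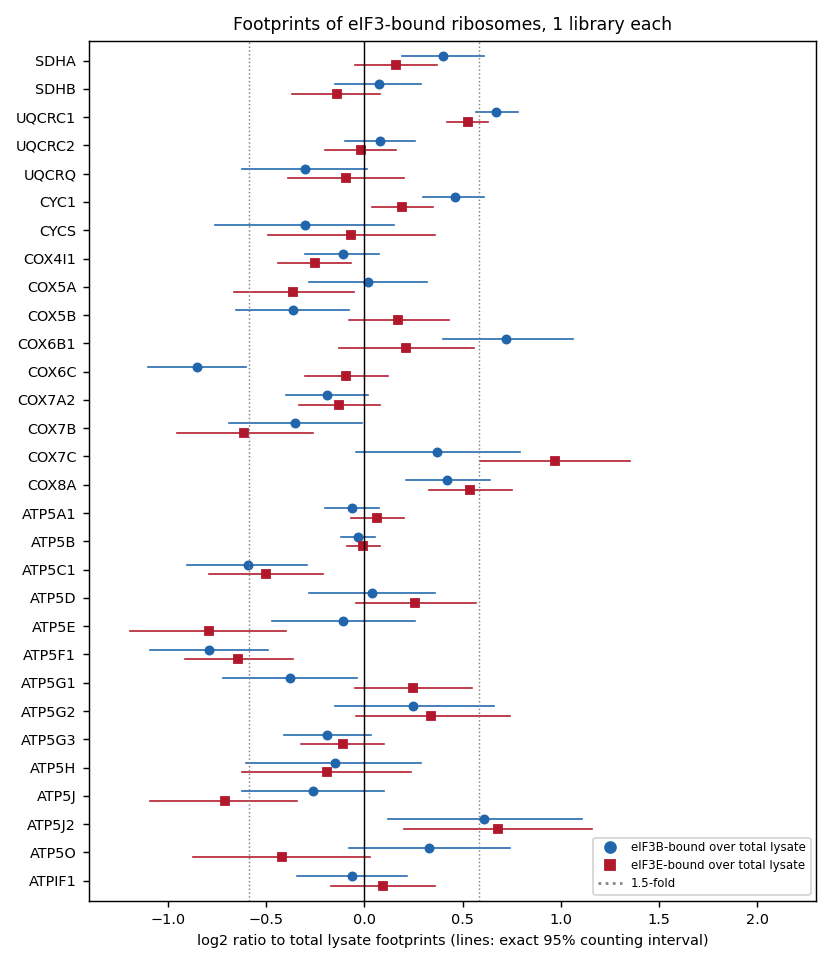
Log2 ratio of eIF3B-bound (circles) and eIF3E-bound (squares) footprints to total lysate footprints (x axis) for the 30 subunits (y axis) that reached 100 counts in at least 1 library; lines are exact 95% counting intervals and dotted lines 1.5-fold. Intervals lie above 0 in both ratios for UQCRC1 (0.67 and 0.53), CYC1 (0.46 and 0.19), COX8A (0.42 and 0.54) and ATP5J2. They lie below 0 in both for ATP5F1 (-0.79 and -0.64), ATP5C1 (-0.59 and -0.50) and COX7B (-0.35 and -0.61).

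The other 11 subunits had fewer counts in these libraries and no ratio is given. UQCRH had 94 counts in eIF3B-bound, 73 in eIF3E-bound and 43 in total lysate footprints, COX7A2L 15, 23 and 30, and UQCR11 0 in each.

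Some subunits have processed pseudogenes close in sequence, which could take or share reads. Of the 41 symbols, 28 had rows named as their pseudogenes in the total RNA table (144 rows, 51 with a count), with 413 counts in all against 92916 counts of the subunits. The share was highest for ATP5G1 (9.71%), ATP5E (8.86%), UQCRFS1 (5.18%) and COX6A1 (4.17%), so values of these genes carry that uncertainty. These shares are of total RNA. The footprint table listed only 1 of the pseudogene rows, so no such share is given for footprints. As the counting of reads that map to several genes is not given, a low share does not clear the other subunits.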

How the data were processed

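The study sequenced 15 libraries of total RNA or ribosome footprints from MCF-10A cells. Per the labels' protocols, RNase I (450 units, 45 min) was added to lysate of 5 OD260 units, footprints were taken from gels at 26 to 34 nt, and ribosomal RNA was removed. The tables deposited by the authors give raw counts, 1 row per gene symbol. The submitters' processing notes name the genome as hg38 and GRCh38 and the tools as HTSeq, STAR 2.5, Bowtie 1.1.2 and cutadapt 1.18. Not given in the sources used here are the role of each tool, the annotation, the counted feature and the strand setting. Every value column was matched to its sample (0 unmapped) by title, and that of eIF3B-bound footprints by title and treatment label.

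The main test was the two-sided quasi-likelihood F test of edgeR 4.0.16 under R 4.3.3, with robust fitting, TMM factors for each assay and a filterByExpr minimum of 10 counts. Benjamini-Hochberg adjustment covered all genes of a fit, with 0.05 as the threshold. Each assay had its own fit of 6 libraries. Footprints per mRNA were tested in 1 model of 12 libraries with an assay by siRNA term, for genes kept in total RNA as well as in footprints. The scripts were tested on simulated counts. Single libraries were scaled to the total lysate library by TMM on genes with at least 100 counts in 1 of 3, with exact conditional 95% intervals and 1.5-fold as a descriptive limit.

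The alternatives were DESeq2 size factors, total-count scaling, no filter, a minimum count of 50, DESeq2 1.42.0, limma-voom 3.58.1 with sample weights, a replicate block, genes of the footprint table alone, and leaving out each library. The subunits and gene lists were chosen with earlier results of these data known. The naming rule gives values for up to 8 called subunits per comparison by adjusted p and up to 4 called genes of each other list, or its 2 most abundant genes if there were no calls. One gene of the complex I list is not reported here. The other called subunits, the uncalled ones shown with their values, LAMB3 and CDH3 were added after the values were seen. Uncalled log2 changes within 1 SE of 0 were not given. Levels were not compared between genes. Promoters and gene positions are from RefSeq (GRCh38.p14).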

Additional observations from a re-analysis of the deposited data

Results flagged for a closer look

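COX7B was called, just under the threshold, by a test of the difference between the assays itself. Its change in footprints per mRNA was 1.07 ± 0.23 on the log2 scale, from a footprint change of 0.76 ± 0.20 and a total RNA change of -0.31 ± 0.12 (eIF3e siRNA over control siRNA, edgeR's quasi-likelihood test of the interaction, adjusted p 0.050, 3 libraries per siRNA and assay). The call was lost without each siRNA and number in turn (0.95 to 1.18, adjusted p 0.091 to 0.17) and with total-count scaling.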

How the results depend on the processing

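Of the subunits' values under alternatives, 975 kept their direction and side of the threshold, 83 lost a call, 24 gained one and 0 changed sign, leaving aside 41 uncalled values within 1 SE of 0. Called under every alternative were 4 subunits in total RNA (SDHA, UQCRC1, CYC1 and ATP5B), 6 in footprints (SDHA, UQCRC1, UQCRQ, COX7B, ATP5B and ATP5G1) and 0 in footprints per mRNA. In total RNA, 16 subunits were higher and 0 lower with total-count scaling and 5 higher and 2 lower with the DESeq2 Wald test, against 9 and 4. In footprints 1 subunit was lower, against 2, with a minimum count of 50, with the DESeq2 Wald test and with the replicate block. In footprints per mRNA 0 were higher with total-count scaling, 3 with the DESeq2 Wald test and 2 with the replicate block by siRNA and number, against 1. The DESeq2 Wald test lost SDHB, UQCRB, UQCR10, COX6B1, ATP5D and ATP5H in total RNA and COX7A2L, ATP5J and ATPIF1 in footprints. Total-count scaling lost UQCRB, COX7A2L, ATP5G2 and ATP5H in total RNA and SDHB, ATP5J and ATPIF1 in footprints. ATPIF1 footprints were also lost with DESeq2 size factors and with no filter, and the replicate block lost COX7A2L, ATP5J and ATPIF1 in footprints and, of the other lists, MT-CO3 in total RNA. Leaving out each library in turn gave 5 to 8 higher and 1 to 5 lower in total RNA, 7 to 13 higher and 0 to 2 lower in footprints, and 0 higher in footprints per mRNA, with fewer samples in each fit. For the other differences the cause was not tested.

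The main fits did not pair the samples by replicate number. Deviations of same-numbered total RNA libraries of the 2 siRNAs had r of -0.0145, 0.192 and 0.297, against -0.318 to 0.186 for unlike numbers. Between total RNA and footprints, same-numbered libraries had r of 0.0378, 0.0433 and 0.0422 for eIF3e siRNA and 0.134, 0.0015 and 0.119 for control siRNA. Unlike numbers had -0.0395 to 0.00148 and -0.137 to 0.03. Whether a shared number marks a shared culture was not tested. With at least 30 counts in 1 of the single libraries, 6 of 40 subunits were at least 1.5-fold above and 6 below total lysate in eIF3B-bound footprints. With at least 300 counts, 1 of 13 was above and 1 below in eIF3B-bound footprints, and 0 above and 0 below in eIF3E-bound footprints. Footprints per coding length were not run. The variation between replicates (biological coefficient of variation) was 0.155 in total RNA and 0.245 in footprints, so a change of a given size is less easily called in footprints.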
